A study of Homo sapiens with 24 samples.

Results

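BXPC3 and PANC1, human pancreatic cancer cell lines, were compared for how their transcripts responded to SR4 and lonidamine given together. For each gene the log2 change from vehicle to combination in BXPC3 was subtracted from the same change in PANC1, so a positive difference means that the gene rose more, or fell less, in PANC1. The comparison used 12 of the 24 libraries of the series, 3 vehicle and 3 combination libraries in each line. Both count tables hold 25168 genes, and the 11538 genes with enough counts in each line were tested.

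Cells were treated for 24 h with vehicle, with SR4 at 5 uM, with lonidamine at 300 uM or with both, after growth in low-glucose medium with serum. The doses inside the combination are not given separately in the labels. The genotype field of the labels repeats the treatment and names no genetic change. Each is a single established line, so a difference between them belongs to this pair of lines. The labels do not say whether the 3 libraries of a group came from separate cultures. The p-values therefore measure only the spread among libraries within groups, estimated over all 24 libraries, and that spread may be technical.

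SR4 is the code name of an uncoupler of mitochondria, a compound that lets protons leak across the inner membrane so that respiration no longer drives ATP synthesis. Lonidamine blocks pyruvate entry into mitochondria through its carrier, lactate export by monocarboxylate transporters and respiratory complex II. Cells short of energy or of amino acids, or with unfolded protein in the endoplasmic reticulum (ER), are known to raise the transcription factor ATF4. The ER has its own sensors, of which ATF6 and IRE1 (encoded by ERN1) induce chaperones, and sterol synthesis is set by SREBP factors that INSIG1 holds back in the ER membrane.

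Library totals lay between 9142433 and 9366776 counts in the BXPC3 combination group and between 10485712 and 11470973 counts in the BXPC3 vehicle group. In PANC1 they lay between 10288020 and 11603105 counts with the combination and between 8873041 and 9541034 counts with vehicle. Depth thus moved with treatment in opposite directions in the lines, and its part in the results was not tested. Levels are given as CPM, counts per 1000000 counts of a library whose size was scaled by TMM (trimmed mean of M values), and a CPM is a share of the RNA sequenced. In bulk libraries, fewer cells with a transcript and less RNA of it per cell cannot be told apart. Of the 8 ductal epithelial markers all had counts in both lines. Their sum went from a range of 6555 to 7093 CPM to 3800.3 to 3824 CPM in BXPC3. In PANC1 it went from 3771 to 3933 CPM to 843 to 882 CPM. EPCAM and SOX9 went the other way in BXPC3, from means of 229 to 305 CPM and 54.6 to 71.1 CPM. The 9 acinar markers summed to at most 1.16 CPM in the 12 libraries compared, where CELA3A, CTRB1, PNLIP and AMY2A were at 0 counts. Of 8 immune markers only CD68 exceeded 5 CPM, and its mean went from 19.5 to 40.1 CPM in BXPC3 and from 122 to 201 CPM in PANC1. The sum of 7 fibroblast markers went from 24.3 to 25.8 CPM with vehicle to 20.1 to 28.6 CPM with the combination in BXPC3. In PANC1 it went from 84.2 to 90.4 CPM to 16.5 to 17.6 CPM. COL1A1 made up most of it in both lines. In BXPC3 the mean of COL1A1 went from 12.8 to 23.9 CPM and that of FAP from 9.84 to 1.72 CPM. The 5 mesenchymal markers summed to 463 to 517 CPM and then 507 to 515 CPM in BXPC3, most of it FN1. In PANC1 they summed to 4334 to 4434 CPM and then 2870.1 to 2892 CPM, most of it VIM. The members did not move alike. In BXPC3 the mean of VIM went from 69.5 to 140 CPM, SNAI2 from 117 to 77.2 CPM and CDH2 from 14.8 to 2.61 CPM. In PANC1 ZEB1 rose from 60.8 to 125 CPM while VIM and CDH2 fell. The 5 endothelial markers went from 9.85 to 11.6 CPM to at most 0.937 CPM in BXPC3 and stayed at or under 0.444 CPM in PANC1, with CLDN5 at 0 counts throughout. The 5 endocrine markers summed to at most 0.837 CPM in BXPC3 and 9.14 CPM in PANC1, nearly all SYP, with INS, GCG and SST at 0 counts. The part of these markers in the results was not tested.

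The combination changed most genes in both lines, and for most genes the size or the direction of the change differed. In BXPC3 4596 genes rose (39.8% of those tested) and 4628 fell (40.1%). In PANC1 4528 rose (39.2%) and 4949 fell (42.9%). The difference between the lines was called, at an adjusted p under 0.05, for 8282 genes (71.8%). It was positive for 4349 (37.7%) and negative for 3933 (34.1%). At least a 2-fold difference was called for 1370 genes in the positive direction and 1549 in the negative. Over all tested genes the difference had a median of 0.04 log2 and a median size of 0.56 log2, with 90% of genes between -1.77 and 1.58 log2. With so many genes called, the size and direction of a difference say more than the call itself.

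Called differences were of several kinds. Both lines rose for 1798 of the called genes and both fell for 2010, with the larger change in BXPC3 for 1756 and in PANC1 for 2052. The lines moved in opposite directions, with all 3 tests called, for 1911 genes (16.6% of those tested). Of these 857 rose in PANC1 and fell in BXPC3 (7.43%) and 1054 fell in PANC1 and rose in BXPC3 (9.14%). Opposite changes of at least 2-fold in both lines were fewer, 29 of the first kind and 97 of the second. Among the other called genes, 705 rose and 666 fell in PANC1 without a called change in BXPC3. In BXPC3 597 rose and 561 fell without a called change in PANC1, and 34 had a called difference with neither change called.

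**Figure D1:**
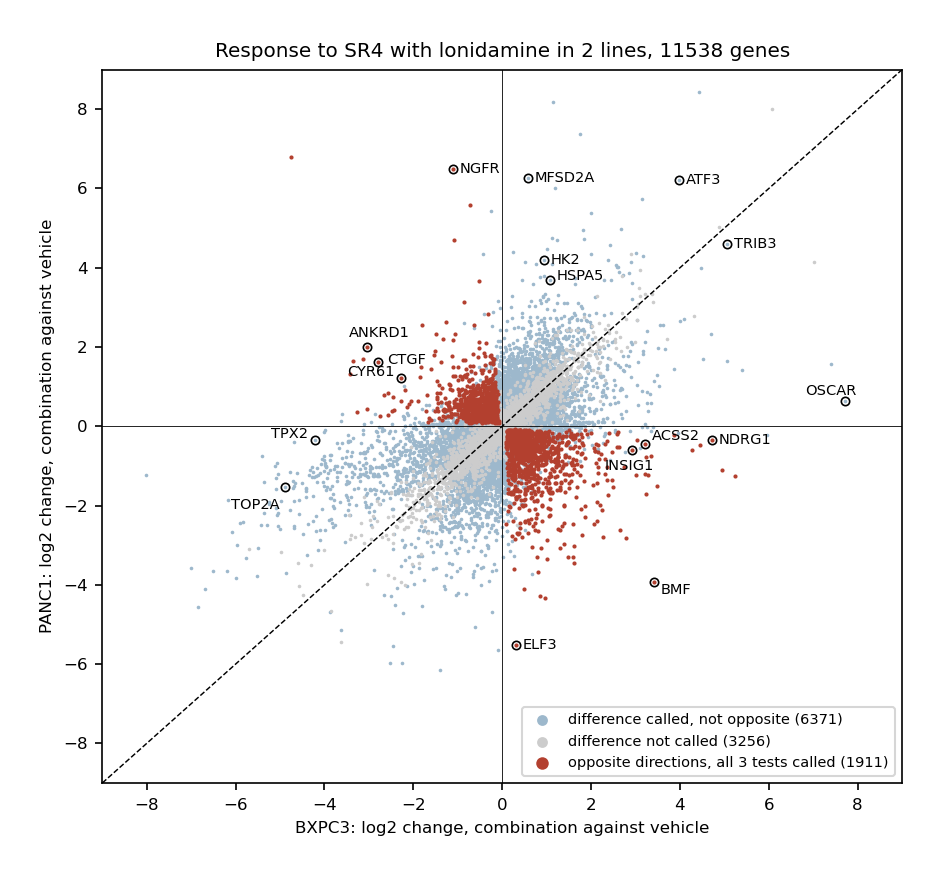
Each point is a tested gene, with its log2 change from vehicle to combination in BXPC3 on the horizontal axis and in PANC1 on the vertical axis; the dashed line marks equal change. The 1911 genes in red moved in opposite directions, among them INSIG1, NDRG1 and BMF at the lower right and CYR61, CTGF and ANKRD1 at the upper left.

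Sterol and fatty acid synthesis separated the lines in the negative direction. Of 25 listed genes of cholesterol synthesis and its control, 24 were tested. In BXPC3 23 rose and 0 fell, and the median change was 1.6 log2, whereas in PANC1 11 rose and 13 fell, and the median was -0.19. The difference was negative and called for 21 of 24 and positive for 0, with a median of -1.70 log2, and 13 genes moved in opposite directions.

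INSIG1, the ER protein that retains the SREBP escort and is itself an SREBP target, stood at 153, 159 and 158 CPM in the BXPC3 vehicle libraries and at 1184, 1169 and 1181 CPM with the combination. In PANC1 it stood at 121, 119 and 116 CPM with vehicle and at 80.7, 80.8 and 74.8 CPM with the combination. From similar vehicle levels the lines thus moved apart. The changes were 2.91 ± 0.04 and -0.59 ± 0.05 log2 (SE, 3 libraries per group here and below), and the difference was -3.50 ± 0.06 (adjusted p = 7.00e-32, edgeR's quasi-likelihood test). HMGCS1, an early enzyme of the mevalonate pathway, stood at 369.5, 378 and 400.0 CPM in BXPC3 with vehicle and at 1438, 1440.5 and 1426 CPM with the combination. Its PANC1 libraries held 132, 131 and 119.9 CPM, then 109, 113 and 110.3 CPM. The HMGCS1 difference was -2.11 ± 0.06 log2 (adjusted p = 1.66e-26). MSMO1, a sterol demethylase, rose by 2.49 ± 0.04 log2 in BXPC3 and by 0.11 ± 0.05 in PANC1 (difference -2.38 ± 0.07).

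The 3 list members without a called difference were the mevalonate pathway kinases MVK (difference -0.09 ± 0.10) and PMVK (0.12 ± 0.16), and SREBF2 (0.03 ± 0.05). SREBF2, the gene of the sterol SREBP factor, rose in both lines, by 0.70 ± 0.04 and 0.73 ± 0.04 log2.

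Promoters of sterol genes were searched for the sterol element TCACNCCAC and the CCAAT box, on both strands, in windows of 300 bases that run from 250 before to 50 after the transcription start (RefSeq, GRCh38.p14). Sequences were at hand for 18 of the 24 genes. The sterol element was found in 1 of 18 (5.56%) against 1.15% of all 27305 promoters, and CCAAT in 15 of 18 (83.3%) against 35.7%. Among the tested genes with a sequence the shares were 1.08% and 37.1%. CCAAT was as frequent in the ER unfolded protein response list, at 19 of 22. The HMGCS1 window at chr5:43313363-43313662, minus strand, is shown as an example of the opposite sterol genes, with CCAAT boxes of either strand in capitals.
HMGCS1: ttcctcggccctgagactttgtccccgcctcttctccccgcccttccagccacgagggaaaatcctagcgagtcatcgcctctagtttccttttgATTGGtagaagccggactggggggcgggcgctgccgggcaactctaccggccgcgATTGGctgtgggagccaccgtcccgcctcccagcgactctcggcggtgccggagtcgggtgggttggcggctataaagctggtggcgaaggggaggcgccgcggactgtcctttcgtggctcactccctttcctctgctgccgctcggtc
A match is a description of these letters and not a binding site.

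Fatty acid synthesis moved with the sterol genes. Of 15 tested members (16 listed) 12 rose and 3 fell in BXPC3, and 1 rose and 10 fell in PANC1. The difference was negative for 14 and positive for 0, with a median of -1.34 log2, and 7 were opposite. ACSS2, which makes acetyl-CoA from acetate, stood at 64.8, 63.0 and 60.1 CPM with vehicle and 589.8, 569.6 and 581 CPM with the combination in BXPC3, and at 36.0, 35.9 and 28.7 CPM and then 23.9, 26.5 and 23.4 CPM in PANC1. Its changes were 3.21 ± 0.05 and -0.45 ± 0.08 log2, and its difference of -3.66 ± 0.09 was the most negative of the list (adjusted p = 2.85e-27). SCD, the desaturase that makes oleate, went from 1748, 1682 and 1733 CPM to 5183, 5131 and 5092 CPM in BXPC3 and from 2292, 2281 and 1969 CPM to 1183, 1134 and 1007 CPM in PANC1. It was the higher of the lines in PANC1 before treatment and in BXPC3 after it. FASN, fatty acid synthase, rose by 1.22 ± 0.05 in BXPC3 and fell by 1.0 ± 0.05 log2 in PANC1. ELOVL6, an elongase, fell in both lines, by 1.90 and 1.43 log2, and was the member without a called difference.

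**Figure D2:**
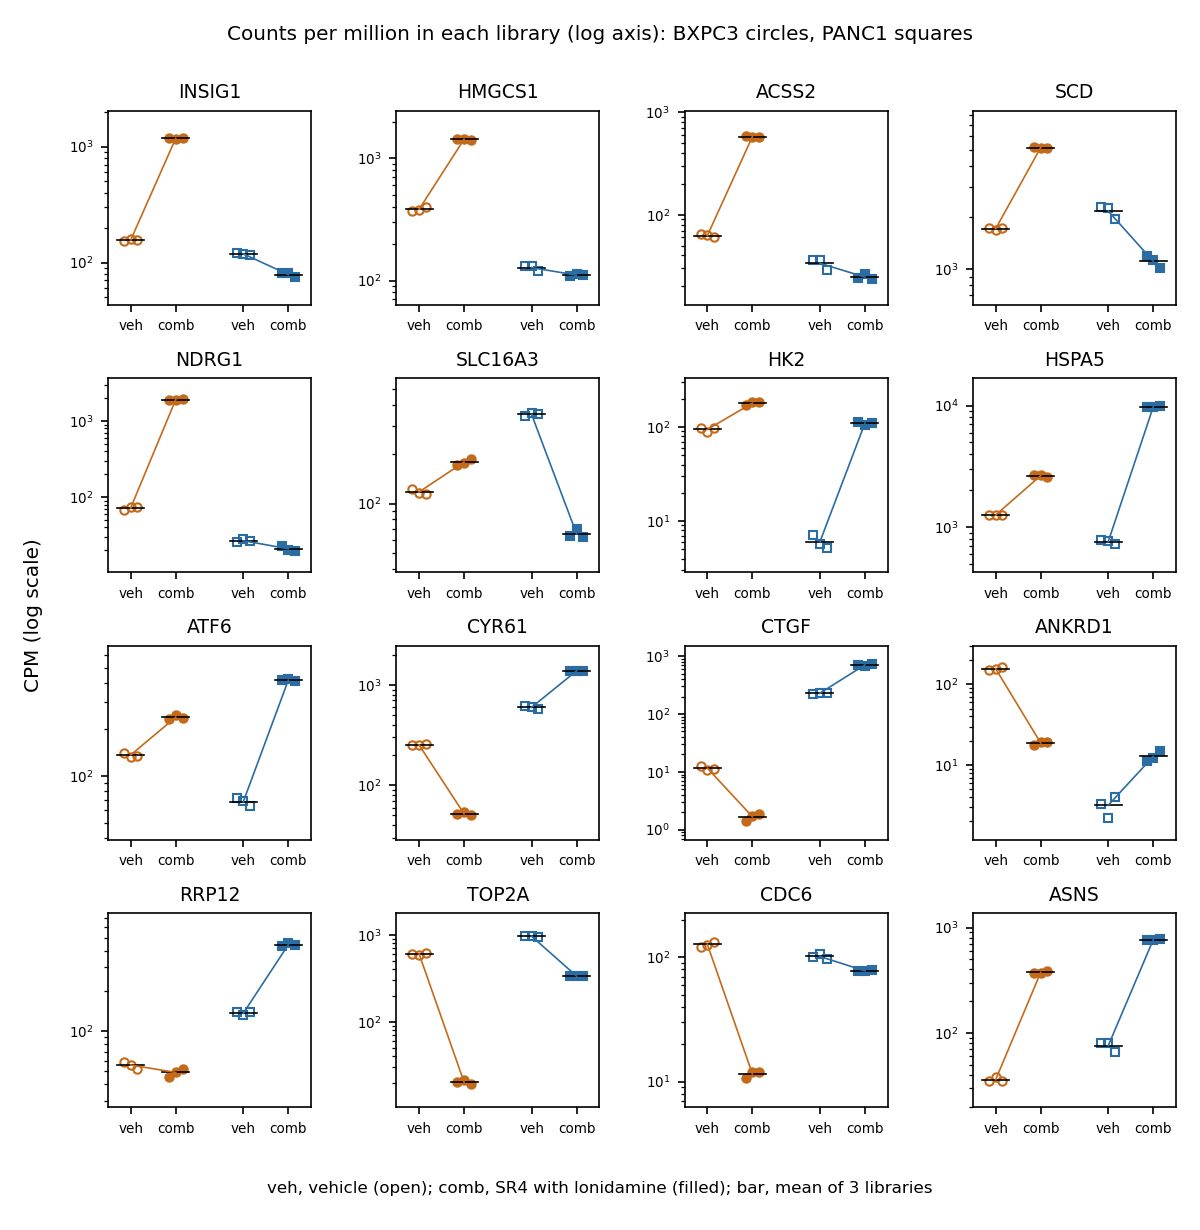
Level of 16 genes in each of the 12 libraries in CPM on a log axis, BXPC3 circles and PANC1 squares, vehicle open and combination filled, with a bar at the mean of 3 libraries and a line joining the means. INSIG1 and NDRG1 rise only in BXPC3, HK2 and HSPA5 rise far more in PANC1, and ASNS rises alike in both.

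A glucose transporter and a hexokinase gene rose in PANC1, and a lactate exporter gene fell there. HK2, the hexokinase that binds mitochondria, stood at 97.1, 89.2 and 97.3 CPM in BXPC3 with vehicle and at 172, 185 and 184 CPM with the combination. In PANC1 it rose from 7.14, 5.78 and 5.16 CPM to 113, 107 and 111 CPM. The rise was 0.93 ± 0.05 log2 in BXPC3 and 4.19 ± 0.09 in PANC1, a difference of 3.26 ± 0.11 (adjusted p = 7.13e-24). SLC2A1, the basal glucose transporter, went from a mean of 55.0 to 142 CPM in PANC1, a rise of 1.37 ± 0.06 log2, with 440 and 419.9 CPM and no called change in BXPC3. SLC2A3, another glucose transporter of the list, had too few counts in PANC1 to be compared and went from a mean of 1.73 to 35.7 CPM in BXPC3. SLC16A3, a lactate exporter, went the other way. Its levels were 123, 117 and 114 CPM and then 173, 178 and 188 CPM in BXPC3, and 342, 358 and 354 CPM and then 63.5, 69.9 and 62.5 CPM in PANC1. It rose by 0.61 ± 0.05 in BXPC3 and fell by 2.43 ± 0.05 log2 in PANC1 (difference -3.04 ± 0.07, adjusted p = 7.99e-29). SLC16A1, the other main lactate carrier, fell by 0.49 ± 0.04 and 0.45 ± 0.05 log2, and its difference of 0.05 ± 0.06 was not called (adjusted p = 0.534).

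Over the 23 tested genes of glycolysis and lactate handling, 15 fell and 7 rose in BXPC3, and 18 fell and 2 rose in PANC1. The difference was negative for 16 and positive for 4, with a median of -0.52 log2. LDHA, which turns pyruvate into lactate, stood at 1036, 1053 and 1044 CPM and then 563, 554 and 522 CPM in BXPC3, and at 1604, 1562 and 1531 CPM and then 289, 286 and 263 CPM in PANC1. It fell by 0.93 ± 0.05 log2 in BXPC3 and by 2.49 ± 0.05 in PANC1. The 4 members that moved in opposite directions were ALDOC, SLC16A3, PFKFB4 and ALDOA. ALDOC, an aldolase isoform, went from 4.09, 4.73 and 3.998 CPM to 19.2, 17.9 and 19.1 CPM in BXPC3 and from 25.1, 24.8 and 17.9 CPM to 4.69, 5.02 and 3.11 CPM in PANC1. ENO2, an enolase isoform, rose by 3.36 ± 0.11 log2 in BXPC3, and its change of -0.11 ± 0.09 in PANC1 was not called.

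Hypoxia-linked genes, many of them known targets of HIF factors, differed in the same direction as the glycolytic ones. Of 17 tested, 14 rose and 3 fell in BXPC3, against 7 and 9 in PANC1. The median was 1.20 log2 in BXPC3 and -0.35 in PANC1, and the difference was negative for 11 and positive for 2. NDRG1, a differentiation-related gene induced by low oxygen and by iron loss, stood at 68.7, 74.5 and 74.3 CPM and then at 1896, 1920.2 and 1944 CPM in BXPC3. In PANC1 it stood at 25.9, 28.0 and 26.2 CPM and then at 23.0, 20.3 and 19.5 CPM. The rise of 4.73 ± 0.06 log2 against a fall of 0.35 ± 0.09 gave a difference of -5.08 ± 0.11 (adjusted p = 1.02e-28). P4HA1 and P4HA2, collagen prolyl hydroxylases, rose in BXPC3 by 0.55 and 1.64 log2 and fell in PANC1 by 1.08 and 0.49 log2. VEGFA, the vascular growth factor, rose in both lines, by 2.35 ± 0.07 and 1.54 ± 0.08 log2. The list did not move as a block: PDK1, the kinase that closes pyruvate dehydrogenase, rose by 0.57 and 0.65 log2 with no called difference.

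Most nuclear genes of the tricarboxylic acid cycle and the respiratory chain fell in both lines, and called differences were more often positive than negative. Over all tested genes, called differences were positive for 37.7% and negative for 34.1%. Of 27 genes of the tricarboxylic acid cycle and pyruvate entry, 23 fell in BXPC3 and 19 in PANC1, and the difference was positive for 15 and negative for 3 (median 0.28 log2). Complex I subunits fell for 33 of 38 in BXPC3 and 28 of 38 in PANC1, with the difference positive for 19, negative for 2 and not called for 17 (median 0.23). All 20 tested genes of complexes III and IV fell in BXPC3 and 17 fell in PANC1, with the difference positive for 11 and negative for 3. All 15 ATP synthase genes fell in both lines. Their difference was positive for 6, negative for 1 and not called for 8, with a median of 0.09 log2, near that of all genes. Of 20 mitochondrial solute carriers and uncoupling genes, 6 rose and 12 fell in BXPC3 and 7 rose and 9 fell in PANC1. The difference was positive for 8 and negative for 4, with a median of 0.04. In the ATP synthase and solute carrier lists the positive share was near that of all genes. With 0 mitochondrial-chromosome genes in the tables, all of these are nuclear genes. SUCLG1, a subunit of succinyl-CoA ligase, went from a mean of 63.96 to 33.3 CPM in BXPC3 and from 71.2 to 99.1 CPM in PANC1 and led this list among opposite members. MPC1, a subunit of the mitochondrial pyruvate carrier, rose in both lines. It went from 7.17, 8.65 and 7.04 CPM to 19.3, 20.4 and 20.001 CPM in BXPC3 and from 8.93, 10.6 and 8.45 CPM to 67.6, 61.9 and 63.7 CPM in PANC1 (difference 1.4 ± 0.17, adjusted p = 7.04e-09). SDHA, a complex II subunit, fell by 0.85 ± 0.04 and 0.45 ± 0.05 log2.

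ATF4 and most of its targets rose in both lines. Of 34 tested targets (35 listed), 32 rose in BXPC3 and 31 in PANC1, with medians of 2.0 and 2.1 log2. The difference was positive for 13 and negative for 16, with a median of -0.17, and 1 gene, the amino acid transporter SLC7A5, moved in opposite directions (0.58 and -0.88 log2). ASNS, asparagine synthetase, went from 34.8, 38.5 and 35.03 CPM to 372, 371 and 386 CPM in BXPC3 and from 79.7, 81.0 and 66.5 CPM to 767, 754 and 781 CPM in PANC1. Its rises of 3.38 ± 0.05 and 3.34 ± 0.05 log2 differed by -0.04 ± 0.07, which was not called (adjusted p = 0.624). ATF4 itself rose by 1.56 ± 0.04 and 1.88 ± 0.04 log2. DDIT3, which encodes CHOP, rose by 4.46 ± 0.07 and 4.0 ± 0.07 log2, and TRIB3, a pseudokinase induced by both, by 5.06 ± 0.06 and 4.60 ± 0.06. The shared direction covered unequal sizes within the list. ATF3, a stress factor downstream of ATF4, went from 4.34 to 68.7 CPM in BXPC3 and from 7.76 to 581 CPM in PANC1 (means), a difference of 2.23 ± 0.15 log2. GDF15, a secreted stress hormone, went from 18.9 to 201 CPM in BXPC3 and from 28.5 to 63.5 CPM in PANC1, a difference of -2.26 ± 0.10.

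The ER chaperones HSPA5 and HSP90B1 rose more in PANC1, and the sensor ERN1 rose more in BXPC3. Of 23 tested genes of the ER unfolded protein response, 13 rose and 6 fell in BXPC3, and 19 rose and 2 fell in PANC1. The difference was positive for 18 and negative for 3, with a median of 0.48 log2. HSPA5, the chaperone BiP that holds the sensors inactive, stood at 1262, 1247 and 1262 CPM in BXPC3 with vehicle and at 2696, 2680.2 and 2584 CPM with the combination. In PANC1 it went from 782, 766 and 728 CPM to 9777, 9702 and 9845 CPM. The rises were 1.08 ± 0.03 and 3.69 ± 0.03 log2, a difference of 2.61 ± 0.04 (adjusted p = 6.13e-33). HSP90B1, the ER form of HSP90, stood at 1095, 1074 and 1099 CPM and then at 1128, 1148 and 1108 CPM in BXPC3, where its change of 0.05 ± 0.03 log2 was not called. In PANC1 it rose from 908, 900.4 and 897 CPM to 2536, 2544 and 2537 CPM. ATF6, the sensor known to induce both, went from 142, 133 and 135 CPM to 235, 248 and 236 CPM in BXPC3 and from 71.9, 68.6 and 64.2 CPM to 414, 421 and 412 CPM in PANC1. CALR, a lectin chaperone, fell by 0.83 ± 0.03 log2 in BXPC3 and rose by 0.20 ± 0.03 in PANC1, and SDF2L1 was the other opposite member. MANF, a secreted ER protein, rose in PANC1 alone by the tests of each line (1.22 ± 0.06 log2, against -0.01 ± 0.06), a difference of 1.23 ± 0.09. The 3 genes with negative differences were EDEM1, EIF2AK3 and ERN1, of which ERN1 rose by 3.03 ± 0.06 in BXPC3 and 2.68 ± 0.07 log2 in PANC1.

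Promoters of this list were searched for the ER stress element, which is CCAAT and CCACG separated by 9 bases of any kind and so contains the CCAAT box. The whole element was found on either strand in 6 of 22 windows (27.3%), against 0.0806% of all 27305 promoters and 0.154% of the 9078 tested genes with a sequence. HSPA5 (chr9:125241294-125241593, minus strand) and HSP90B1 (chr12:103930160-103930459, plus strand) are printed because their differences were among the largest of the list, with the element in capitals.
HSPA5: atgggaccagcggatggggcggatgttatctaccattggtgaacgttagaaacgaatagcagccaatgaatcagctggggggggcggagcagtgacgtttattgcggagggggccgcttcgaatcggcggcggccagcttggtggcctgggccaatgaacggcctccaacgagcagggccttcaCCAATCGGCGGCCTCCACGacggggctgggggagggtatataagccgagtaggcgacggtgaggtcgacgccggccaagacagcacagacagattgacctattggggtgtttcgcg
HSP90B1: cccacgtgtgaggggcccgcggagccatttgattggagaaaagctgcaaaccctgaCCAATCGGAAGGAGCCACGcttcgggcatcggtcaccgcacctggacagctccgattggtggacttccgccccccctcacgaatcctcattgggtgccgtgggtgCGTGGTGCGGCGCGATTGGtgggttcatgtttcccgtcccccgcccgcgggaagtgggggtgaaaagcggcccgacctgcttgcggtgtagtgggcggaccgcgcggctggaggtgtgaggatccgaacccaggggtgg
The HSPA5 window holds 1 match and the HSP90B1 window 2. This motif was searched after the list's differences had been seen, and its letters define a known ER stress site, so the share describes the list and supports nothing about these cells.

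Most ribosome assembly genes fell in BXPC3, and more of them rose than fell in PANC1. Of 28 genes of ribosome biogenesis, 0 rose and 26 fell in BXPC3, against 17 that rose and 8 that fell in PANC1. The medians were -0.70 and 0.22 log2. The difference was positive for 24 and negative for 0, and 15 moved in opposite directions. RRP12, a factor that exports ribosomal subunits, stood at 58.8, 56.1 and 51.9 CPM and then at 45.3, 49.2 and 52.2 CPM in BXPC3, where the lowest vehicle library lay below the highest combination library. In PANC1 it rose from 139, 131 and 138 CPM to 437, 455 and 439.7 CPM. POLR1B, a subunit of the polymerase that transcribes ribosomal RNA, went from 78.9, 77.8 and 80.7 CPM to 62.1, 60.5 and 60.4 CPM in BXPC3 and from 76.1, 76.8 and 72.0 CPM to 216, 212 and 223 CPM in PANC1. From like levels it fell by 0.38 ± 0.05 and rose by 1.53 ± 0.04 log2, a difference of 1.91 ± 0.07 (adjusted p = 2.32e-23). NOLC1, a nucleolar phosphoprotein, fell by 0.69 ± 0.04 and rose by 0.70 ± 0.03 log2. TCOF1, a nucleolar factor of ribosomal RNA synthesis, fell in both lines. It went from 220.3, 218 and 212 CPM to 44.3, 45.3 and 45.9 CPM in BXPC3 and from 247, 234 and 245 CPM to 158, 153 and 154 CPM in PANC1, falls of 2.26 ± 0.04 and 0.64 ± 0.04 log2. The other members that fell in PANC1 were NCL, NOP56, NPM1, POLR1A, RRS1, UTP20 and WDR12. The differences of NPM1, NOP56, POLR1A and PPAN, at -0.06, -0.09, 0.05 and 0.53 log2, were not called.

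Cytosolic ribosomal protein genes differed in the opposite sense and by less. Of 50 tested, 39 rose and 6 fell in BXPC3, and 9 rose and 33 fell in PANC1, with medians of 0.25 and -0.16 log2. The difference was negative for 47 and positive for 0, with a median of -0.39, and 23 were opposite, a count that ran from 17 to 24 over the alternative settings. RPL7A had the most negative difference (-1.18 ± 0.05 log2), with a mean that went from 1396 to 1548 CPM in BXPC3 and from 671 to 328 CPM in PANC1. Most of these genes have processed pseudogene copies. The sources used here do not state how reads matching several places were counted, and single values of this family are uncertain.

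**Figure D3:**
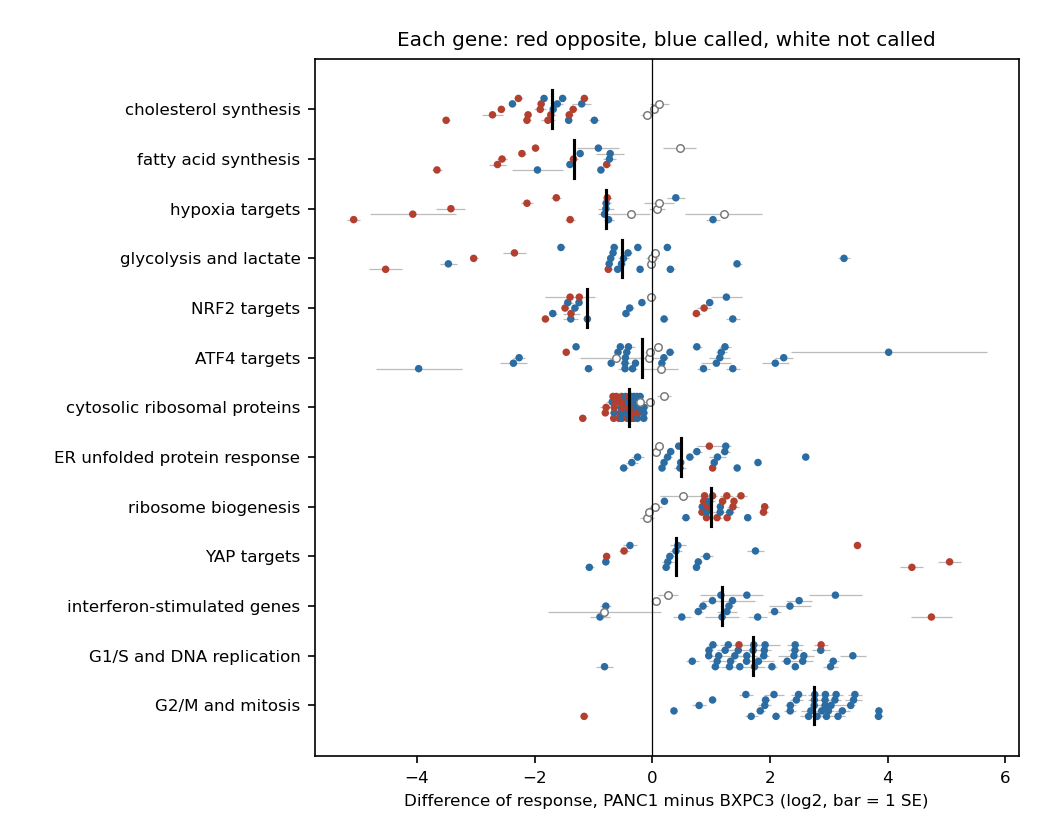
Difference of the combination response for each tested gene of 13 lists, in log2 with a bar of 1 SE, in red where the lines moved in opposite directions, blue for other called differences and white for those not called, with black bars at the medians. G2/M genes lie between 0.37 and 3.85 apart from CDC25B at -1.16, and cholesterol genes lie between -3.50 and 0.12.

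Cell cycle genes fell in both lines and fell far more in BXPC3. Of 37 genes of G2 and mitosis, 36 fell in each line, with medians of -3.86 log2 in BXPC3 and -1.18 in PANC1, and the difference was positive for 36. TOP2A, the topoisomerase that untangles chromosomes, stood at 603, 593 and 620.0 CPM and then at 20.2, 21.4 and 19.2 CPM in BXPC3. In PANC1 it stood at 971, 970.3 and 947 CPM and then at 335, 333 and 336 CPM. It fell by 4.90 ± 0.05 and 1.52 ± 0.04 log2, a difference of 3.37 ± 0.07 (adjusted p = 7.99e-30). TPX2, a spindle factor, went from 482, 474 and 491 CPM to 26.5, 26.2 and 25.8 CPM in BXPC3 and from 935, 904 and 907 CPM to 722, 699.6 and 729.8 CPM in PANC1, so that its fall in PANC1 was only 0.35 ± 0.03 log2. ANLN, a scaffold of the cleavage furrow, fell by 5.05 ± 0.07 and 1.20 ± 0.04 log2. CCNB1, the mitotic cyclin, fell by 3.81 ± 0.06 and 1.71 ± 0.04. CDC25B, a phosphatase that activates cyclin-dependent kinases, was the exception, with changes of 0.43 ± 0.04 and -0.73 ± 0.05 log2.

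All 38 tested genes of the G1/S transition and DNA replication fell in BXPC3, and 36 fell in PANC1, with medians of -2.99 and -1.11 log2. The difference was positive for 37, with a median of 1.72. CDC6, which loads the replicative helicase, stood at 122, 126 and 133 CPM and then at 10.6, 11.95 and 12.001 CPM in BXPC3, and at 101, 106 and 97.3 CPM and then at 77.3, 77.2 and 79.0 CPM in PANC1. It fell by 3.46 ± 0.07 and 0.38 ± 0.05 log2. RRM1, the large subunit of ribonucleotide reductase, fell by 3.05 ± 0.05 and 0.62 ± 0.04, and MCM7, a helicase subunit, by 2.30 ± 0.04 and 0.69 ± 0.04. ORC6 and RFC4, an origin binder and a clamp loader, rose in PANC1 by 0.29 ± 0.07 and 0.25 ± 0.05 log2. CCNE1, the G1 cyclin, fell more in PANC1 (difference -0.81 ± 0.15). DTL, CLSPN, KIF18B, CDC7 and ZNF367, none of them on these lists, were among the 10 most positive differences of genes at a mean log2 CPM of 2 or more in both lines, between 3.86 and 4.28 log2. DTL, a substrate receptor for replication-coupled protein destruction, held 66.9, 69.9 and 73.6 CPM and then 2.43, 2.46 and 3.29 CPM in BXPC3. In PANC1 it held 75.6, 68.7 and 76.5 CPM and then 58.0, 52.1 and 56.9 CPM.

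The promoters of these lists hold the known cell cycle letters. TTTGAA, the cell cycle gene homology region, was found in 19 of 30 G2/M windows (63.3%) against 15.4% of all promoters, and CCAAT in 24 of 30 (80%) against 35.7%. The E2F motif TTTNGCGC was found in 14 of 33 G1/S windows (42.4%) against 1.83%. Among the tested genes with a sequence the shares were 9.10% for TTTGAA, 37.1% for CCAAT and 3.19% for TTTNGCGC. TOP2A (chr17:40417847-40418146, minus strand, TTTGAA and CCAAT in capitals on either strand) and CDC6 (chr17:40287629-40287928, plus strand, TTTNGCGC in capitals) are shown because each fell in both lines by amounts that differed.
TOP2A: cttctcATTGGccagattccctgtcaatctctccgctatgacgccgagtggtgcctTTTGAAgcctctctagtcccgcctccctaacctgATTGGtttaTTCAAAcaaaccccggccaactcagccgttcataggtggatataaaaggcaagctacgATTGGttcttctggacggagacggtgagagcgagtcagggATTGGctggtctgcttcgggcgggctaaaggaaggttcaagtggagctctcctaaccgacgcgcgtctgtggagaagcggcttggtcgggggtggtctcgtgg
CDC6: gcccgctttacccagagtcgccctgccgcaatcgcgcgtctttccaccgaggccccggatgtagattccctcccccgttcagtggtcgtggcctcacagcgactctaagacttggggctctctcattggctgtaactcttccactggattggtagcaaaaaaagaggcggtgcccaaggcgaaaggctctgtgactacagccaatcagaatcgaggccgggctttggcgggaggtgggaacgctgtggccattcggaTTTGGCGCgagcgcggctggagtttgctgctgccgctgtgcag
Other motifs were searched in the same way. TGATGNAA was found in 5 of 25 windows of ATF4 targets against 3.67% of all promoters, ACGTG in 6 of 13 of the hypoxia list against 21.6%, and TGACNNNGC in 4 of 14 of the NRF2 list against 13.6%. GAAA followed after 2 bases by a second GAAA was found in 11 of 14 interferon-stimulated genes against 3.65%, and GGAATG in 4 of 12 YAP targets against 14.0%. Among the tested genes with a sequence the shares were 1.45%, 27.6%, 15.6%, 2.64% and 10.6%, in the same order. Some of these motifs were as frequent in other lists. ACGTG was found in 11 of 21 windows of ribosome biogenesis, and TGACNNNGC in 9 of 25 of ATF4 targets.

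YAP targets split, and their best known members moved in opposite directions. YAP is the co-activator held back by the Hippo pathway, and CYR61, CTGF and ANKRD1 are its usual readouts. CYR61, a matricellular protein, stood at 251.06, 250.2 and 255 CPM and then at 51.2, 53.5 and 50.9 CPM in BXPC3, and at 616, 602 and 577 CPM and then at 1388, 1369.5 and 1391 CPM in PANC1. It fell by 2.28 ± 0.05 and rose by 1.21 ± 0.04 log2, a difference of 3.49 ± 0.06 (adjusted p = 2.28e-32). CTGF, its relative, went from 12.7, 10.9 and 11.3 CPM to 1.39, 1.76 and 1.88 CPM in BXPC3 and from 225, 233 and 232 CPM to 705, 680.5 and 742 CPM in PANC1. ANKRD1, a nuclear ankyrin repeat protein, went from 149, 157 and 162 CPM to 17.8, 19.1 and 19.4 CPM in BXPC3 and from 3.26, 2.22 and 4.06 CPM to 11.2, 12.2 and 15.01 CPM in PANC1. For these 3 genes, which were named for the size of their opposite changes, the groups did not overlap within either line. The share of all tested genes without overlap is not given here, so this does not set them apart. The list as a whole was mixed: of 17 tested, 12 fell in BXPC3 and 10 in PANC1, and the difference was positive for 12 and negative for 5, with a median of 0.40 log2. AXL, a receptor kinase, and ARHGEF17 moved the other way, AXL by 0.29 ± 0.03 in BXPC3 and -0.49 ± 0.03 in PANC1.

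Interferon-stimulated genes fell more in BXPC3. Of 21 tested (29 listed), 19 fell and 2 rose there, and 15 fell and 3 rose in PANC1, with medians of -1.99 and -1.0 log2. The difference was positive for 16 and negative for 2. DDX58, which encodes the viral RNA sensor RIG-I, stood at 86.3, 83.8 and 76.8 CPM and then at 20.8, 21.0 and 20.4 CPM in BXPC3. In PANC1 it stood at 42.1, 38.4 and 40.6 CPM and then at 43.9, 41.4 and 43.7 CPM, with overlap and no called change. The DDX58 difference was 2.08 ± 0.11 log2 (adjusted p = 2.37e-18). The 8 members left out missed the count filter in BXPC3, in PANC1 or in both. CXCL10, for example, passed it in BXPC3 alone. STAT2 rose in both, by 0.80 ± 0.05 and 1.66 ± 0.07 log2. OASL, a sensor-like protein, was the opposite member, but its PANC1 libraries held only 0.445 to 1.84 CPM.

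Of 21 tested antioxidant genes known as NRF2 targets, 16 rose and 4 fell in BXPC3, and 13 rose and 8 fell in PANC1. The difference was negative for 14 and positive for 6, where 34.1% and 37.7% of all tested genes were called in these directions. Of the 14, 5 rose in BXPC3 and fell in PANC1. HMOX1, haem oxygenase, went from 3.35, 2.92 and 3.52 CPM to 53.7, 56.4 and 57.5 CPM in BXPC3 and from 85.3, 82.4 and 79.3 CPM to 537, 550.2 and 523 CPM in PANC1. It rose in both, by 4.09 ± 0.10 and 2.7 ± 0.04 log2. FTH1, the heavy chain of the iron store ferritin, rose by 2.84 ± 0.03 and 1.53 ± 0.03, with the caution that it has many pseudogene copies. NQO1, a quinone reductase, rose by 1.81 ± 0.05 and 0.12 ± 0.05. PGD and TKT of the pentose phosphate pathway rose in BXPC3 by 0.75 and 0.65 log2 and fell in PANC1 by 0.74 and 0.59. SLC7A11, the cystine importer, which the ATF4 list also holds, rose more in PANC1 (difference 1.37 ± 0.12). Of 4 tested metallothionein and zinc export genes, MT1E, MT2A and SLC30A1 rose in BXPC3 and fell in PANC1, and MT1X rose in both. Metallothionein genes are near-identical copies, so their single values are uncertain.

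Among growth arrest and death genes the called differences went in both directions. CDKN1A, the cyclin-dependent kinase inhibitor p21, stood at 182, 188 and 176 CPM and then at 926, 958 and 985 CPM in BXPC3, and at 48.4, 48.6 and 45.2 CPM and then at 43.1, 42.6 and 40.9 CPM in PANC1. It rose by 2.4 ± 0.04 and fell by 0.17 ± 0.05 log2. GADD45A, another arrest gene, rose in PANC1 by 3.15 ± 0.06 log2, and its change of -0.09 ± 0.06 in BXPC3, where the groups overlap, was not called. Its libraries held 53.2, 57.0 and 57.4 CPM and then 51.2, 53.8 and 52.5 CPM in BXPC3 and 27.2, 26.5 and 24.0 CPM and then 232, 228 and 230.0 CPM in PANC1. Over 19 tested p53 targets the difference was positive for 6 and negative for 8, shares near those of all genes. BMF, a pro-death BCL2 family member, went from 5.49, 4.12 and 4.19 CPM to 49.97, 49.6 and 49.4 CPM in BXPC3 and from 19.6, 18.7 and 17.8 CPM to 0.921, 1.77 and 0.977 CPM in PANC1. Its difference of -7.36 ± 0.22 log2 (adjusted p = 2.19e-25) was the most negative among genes whose mean log2 CPM reached 2 in both lines. BBC3, which encodes PUMA, rose by 3.25 ± 0.13 and 0.86 ± 0.25, and PMAIP1, which encodes NOXA, by 0.52 ± 0.07 and 1.82 ± 0.12. Of 17 tested genes of the BCL2 family and death receptors, 4 differed in the positive and 9 in the negative direction, and the share called was near that of all genes.

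Epithelial genes differed mostly in the negative direction. Of 19 tested, 10 rose and 7 fell in BXPC3, and 6 rose and 13 fell in PANC1, and the difference was negative for 13 and positive for 2 (median -0.82 log2). ELF3, an epithelial transcription factor, stood at 56.8, 56.8 and 52.2 CPM and then at 72.8, 67.3 and 66.7 CPM in BXPC3, and at 23.5, 19.9 and 22.6 CPM and then at 0.670, 0.279 and 0.444 CPM in PANC1 (difference -5.83 ± 0.23). KRT18, a simple epithelial keratin, fell by 0.32 ± 0.04 and 1.76 ± 0.04. COL1A1, a fibrillar collagen that was also the leading fibroblast marker, rose in BXPC3 by 0.89 ± 0.11 and fell in PANC1 by 2.39 ± 0.09. Of 13 tested collagens and laminins, 7 moved in opposite directions, each falling in PANC1, and the difference was negative for 9 and positive for 4. Of 8 tested mesenchymal genes, 4 rose and 3 fell in BXPC3, and 1 rose and 7 fell in PANC1. Their difference was negative for 4 and positive for 2, with a median of -0.45 log2.

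**Figure D4:**
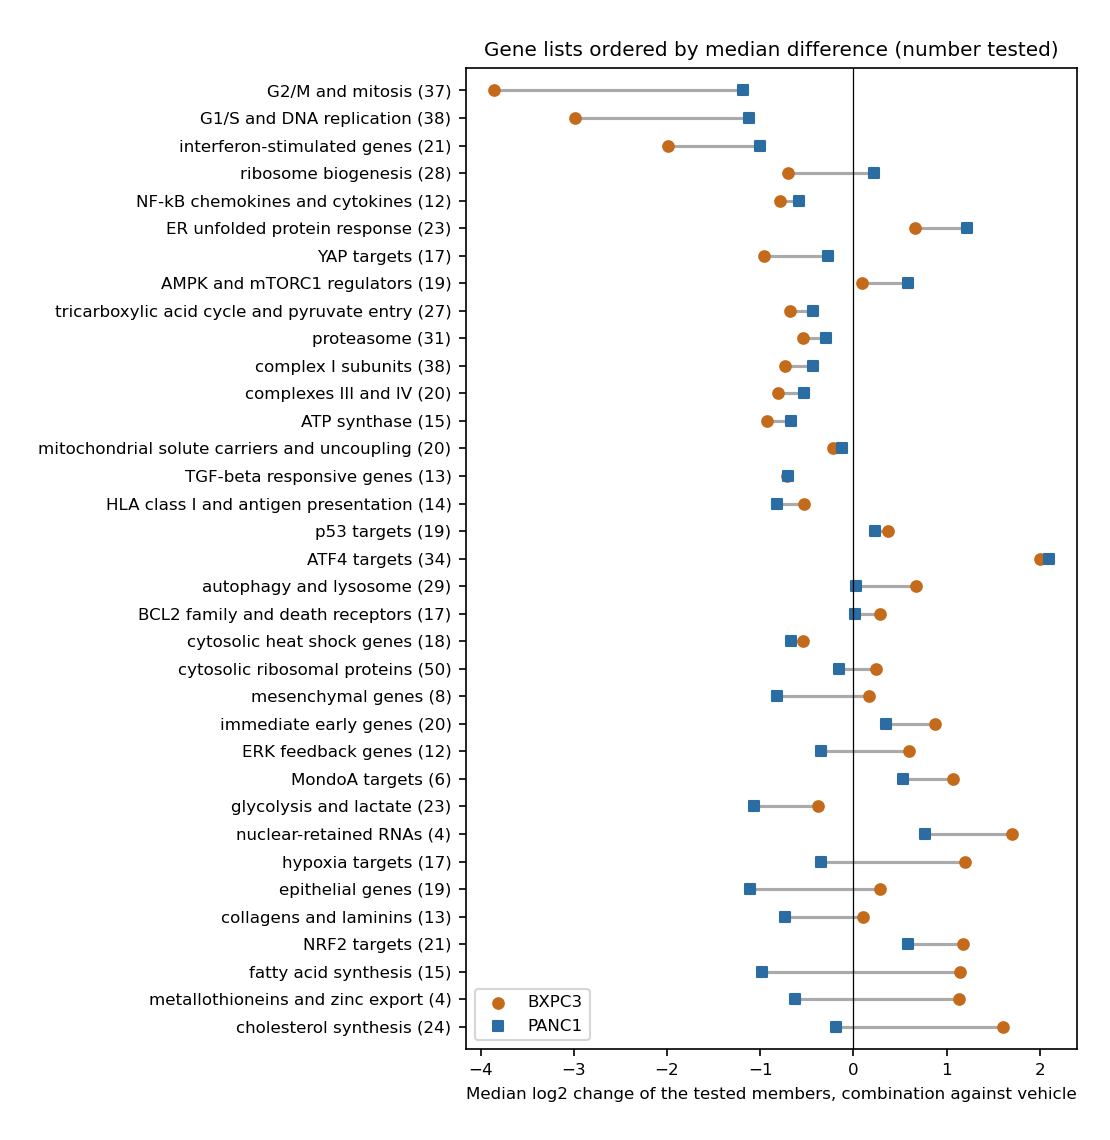
Median log2 change of the tested members of 35 lists in BXPC3 (circles) and PANC1 (squares), ordered by the median difference, with the number of tested genes in brackets. The widest gaps are those of the G2/M list, at -3.86 and -1.18, and of the fatty acid list, at 1.15 and -0.98, while ATF4 targets lie together at 2.0 and 2.1.

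Among single genes whose mean log2 CPM reached 2 in both lines, NGFR, the low-affinity neurotrophin receptor, had the most positive difference. It stood at 57.7, 55.8 and 49.2 CPM and then at 23.8, 24.96 and 27.2 CPM in BXPC3, and at 0.735, 0.778 and 0.769 CPM, 21 counts in 3 libraries, and then at 68.6, 70.8 and 67.7 CPM in PANC1. The difference was 7.58 ± 0.25 log2 (adjusted p = 5.15e-24). MFSD2A, a transporter of lysophospholipids, rose in PANC1 from 1.16, 0.667 and 0.220 CPM to 51.3, 58.8 and 51.3 CPM, and in BXPC3 from 22.1, 24.8 and 20.8 CPM to 30.3, 34.2 and 36.7 CPM. LRIG1, a negative regulator of EGF receptors, was the other gene of the 10 outside the cell cycle and YAP groups. It fell by 1.26 ± 0.07 in BXPC3 and rose by 2.64 ± 0.18 log2 in PANC1.

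The most negative differences after BMF were held by genes of varied function. OSCAR, an immunoglobulin-like receptor, rose from 0.372, 0.101 and 0.286 CPM to 56.3, 51.6 and 61.8 CPM in BXPC3. In PANC1 it rose from 2.94, 4.002 and 3.84 CPM to 5.44, 5.58 and 5.77 CPM (difference -7.08 ± 0.37, adjusted p = 2.22e-18). With a BXPC3 vehicle level so near 0, the size of the OSCAR difference is uncertain. FOXL1, a forkhead factor, went from 17.6, 19.6 and 15.5 CPM to 112, 107 and 109 CPM in BXPC3 and from 19.7, 19.6 and 22.0 CPM to 3.52, 2.79 and 3.55 CPM in PANC1. From like vehicle levels, FOXL1 rose by 2.64 ± 0.07 and fell by 2.63 ± 0.12 log2. The rest of the 10 were MDGA1, NDRG1, THSD7A, MFAP3L, SH3PXD2B, IL11 and TNFRSF1B, with differences between -5.13 and -4.60 log2. Of these, MDGA1, SH3PXD2B and TNFRSF1B fell in PANC1 by 4.28, 3.30 and 4.11 log2, and IL11, a cytokine of the IL-6 family, rose in BXPC3 by 4.28 ± 0.18.

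The single compounds were read in the same fit and share vehicle libraries with the combination, so their values are set side by side without a test of one against another. A BXPC3 SR4 library has a column number that matches no sample title and was placed by its line and treatment. It also entered the shared spread. The median difference between the lines over cholesterol genes was -1.26 log2 with SR4 and -0.02 with lonidamine, beside -1.70 with both. For INSIG1 the changes in BXPC3 and PANC1 were 0.80 and -1.55 log2 with SR4, 0.29 and -0.29 with lonidamine, and 2.91 and -0.59 with both. For G2/M genes the median difference was 0.93 with SR4, 1.17 with lonidamine and 2.76 with both. TPX2 fell in PANC1 by 0.42 with SR4, by 1.57 with lonidamine and by 0.35 with both, whereas in BXPC3 it fell by 1.80, 2.81 and 4.20. Hypoxia genes had median differences of 0.71 with SR4, 0.13 with lonidamine and -0.78 with both. NDRG1 rose in PANC1 with each compound alone, by 1.89 and 0.72 log2, and fell by 0.35 with both. HSPA5 had a difference of 2.46 ± 0.04 with SR4, 2.05 ± 0.04 with lonidamine and 2.61 ± 0.04 with both. CYR61 had differences of 3.10 ± 0.05, -0.65 ± 0.05 and 3.49 ± 0.06 in the same order.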

How the data were processed

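RNA was sequenced from 24 libraries. The deposited files are 2 tables, 1 per line, of whole-number read counts per gene, made by the authors. The submitters' processing notes name STAR 2.7.8a, Partek, DESeq2 and the builds GRCh38 and hg38 without roles, and the counting tool, the annotation and the use of strand are not stated there, so overlapping and antisense genes cannot be told apart. Tables were joined on symbol. Genes passing filterByExpr (minimum count 10) in each line separately were tested. edgeR 4.0.16 (R 4.3.3) fitted all 24 libraries in 8 groups with TMM scaling, from which CPM was taken, and the quasi-likelihood test, with 16 residual degrees of freedom, Benjamini-Hochberg adjustment over the 11538 genes and a threshold of 0.05. All ± on log2 changes are SE, and each group has 3 libraries. The fit was tested on simulated data with differences of a smaller and a larger size planted in 100 genes each. It recovered 60% of the smaller and 82% of the larger, and 11 of 153 calls were false. Far fewer genes differed in the simulation than were called in the real data.

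Members and lists were chosen with earlier results of these data known. Named genes were the 10 most positive and 10 most negative called differences among genes whose mean log2 CPM reached 2 in both lines, the 6 per direction at that level with opposite changes, ranked by the smaller of the 2 lines' changes, up to 4 members per list with the smallest adjusted p, and a panel of 22. Other list members, such as exceptions, were named after their values were seen, and some genes that meet the rule are not reported here. Of 785 list entries, 15 were matched by synonym and 1 was not matched. Promoters came from RefSeq. Alternatives covered scaling, filters, DESeq2 1.42.0, the replicate block and leaving out each of the 12 vehicle and combination libraries. No library of a single compound was left out on its own.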

Additional observations from a re-analysis of the deposited data

Results flagged for a closer look

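The 6 genes per direction with opposite changes, ranked by the smaller of the 2 lines' changes and at a mean log2 CPM of 2 or more in both, are given here, with the difference itself called by edgeR's quasi-likelihood test for each. The differences, PANC1 minus BXPC3, were 5.05 log2 for ANKRD1, 4.41 for CTGF, 3.90 for LRIG1, 3.49 for CYR61, 3.08 for HSPB8 and 3.06 for MTBP, which rose in PANC1 and fell in BXPC3. They were -7.36 for BMF, -5.27 for FOXL1, -4.53 for ALDOC, -4.37 for PEAR1, -4.18 for FBXO32 and -4.06 for IL6R, which fell in PANC1 and rose in BXPC3.

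Genes with enough counts in 1 line only entered no comparison between lines and also changed. Of 1382 such genes in BXPC3, 363 rose and 670 fell, and of 976 in PANC1, 216 rose and 469 fell. Over the genes tested in both lines, 39.8% rose and 40.1% fell in BXPC3, and 39.2% rose and 42.9% fell in PANC1. The calls for genes of a single line came from a separate fit of that line's libraries, with its own scaling and adjustment. Such a gene could pass the count filter through a single group with high counts. In BXPC3, IGFBP5, a binding protein of insulin-like growth factors, went from a mean of 272 to 1.79 CPM. In PANC1, BCAT1, which transfers amino groups of branched-chain amino acids, went from 4.72 to 68.8 CPM.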

How the results depend on the processing

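The number of called differences ran from 7337 to 8617 over the 21 alternatives, the number of opposite genes from 1731 to 1971, and 0 genes called in both fits turned sign. The counts over all tested genes that rose, fell, differed or moved in opposite directions stayed within 1.5 times of the reported ones. Small list counts moved more: hypoxia genes with a positive difference numbered 1 to 3, and opposite members 0 to 2 of the interferon list and 1 to 2 of the ER list. Median differences ran from -0.25 to -0.088 for ATF4 targets, from 0.043 to 0.15 for ATP synthase and from -0.033 to 0.11 for the mitochondrial solute carriers. The share of called differences that were positive ran from 49.7% to 56.9%, and scaling by total counts alone moved the median of all genes by 0.069 log2. With the replicate number as a block, 8211 differences were called, 8173 of them shared. In that fit the BXPC3 SR4 library without a matching title number formed its own level. Whether the numbers pair the samples cannot be told from 3 libraries per group. Same-numbered vehicle and combination libraries correlated at -0.059, -0.040 and -0.180 in BXPC3 and at 0.184, 0.064 and 0.028 in PANC1. Libraries of unlike number correlated at -0.057 to 0.116 in BXPC3 and at -0.138 to 0.088 in PANC1. Reversals touched differences near 0, and the cause was not tested. The ASNS difference was 0.027 with total counts only and -0.13 to 0.011 with 1 library left out. NEAT1 ran from -0.43 to 0.011 and the HLA list median from -0.15 to 0.020 with 1 library left out. The p53 list median was 0.093 with the stricter level filter.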
